A study of Mus musculus with 16 samples.

Results

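Regulatory T cells are CD4 T cells whose lineage factor is Foxp3, and those described here came from single-cell libraries of CD45+ cells of tumor and spleen. Members were chosen by UMIs (unique molecular identifiers, 1 per captured RNA molecule) of a few genes, and a cell was a member when it carried at least 1 Foxp3 UMI and at least 1 UMI over Cd3e, Cd3d and Cd3g. Members had no UMI of Cd8a, Cd8b1 or Cd79a and at most 1 over C1qa, C1qb and C1qc, so CD8 T cells, B cells and most macrophages were left out. The rule found 463 members among 17668 filtered CD45+ cells, 295 of 9069 in tumor and 168 of 8599 in spleen. All 16 deposited libraries together held 37609 barcodes.

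Mice of the C57BL/6 background, either Aire+/+ or Aire-/-, carried MC38 colon adenocarcinoma tumors and received anti-PD1 or a rat IgG2a isotype control antibody. Aire is the transcription factor that lets thymic epithelium present tissue antigens to developing T cells, and PD1 is an inhibitory receptor of activated T cells. Tumors and spleens were collected on day 19 from the 4 conditions that genotype and antibody formed together. Each condition gave 1 CD45+ library per tissue, prepared with droplet 3′ chemistry.

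By the study's methods the animals were 8 weeks old, and tumors of several mice were pooled within each condition, as were spleens. The design therefore held 4 tumor and 4 splenic libraries with no replicate of a condition, and mice within a pool could not be separated. The study's flow cytometry methods describe enzymatic dissociation for tumors and mechanical dissociation for spleens, so tissue and handling cannot be told apart. Values below are given with the isotype and then the anti-PD1 library of Aire+/+ mice, followed by those of Aire-/- mice in the same order, unless a library is named. The tumor libraries contributed 123, 72, 34 and 66 members and the splenic libraries 31, 35, 50 and 52.

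Regulatory T cells restrain other lymphocytes through inhibitory receptors such as Ctla4, through capture of IL-2 by the receptor chain Il2ra, and through cytokines and enzymes that dampen inflammation. Cells that leave the thymus committed to the lineage circulate through lymphoid organs in a resting state and can become effector cells in inflamed tissue and in tumors. In tumors they are studied chiefly as a brake on CD8 T cells, and Aire takes part in their selection in the thymus.

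Sequencing depth differed between the tissues. The median member carried 8729, 7938.5, 7654 and 7065 UMIs in tumor and 5301, 4575, 4337.5 and 3865 in spleen, so the tissues did not overlap. Members of a library summed to 1326221, 735232, 354135 and 578442 UMIs in tumor and to 183454, 180190, 248439 and 246035 in spleen. Levels are therefore given as CPM, the UMIs of a gene relative to all UMIs of the members of a library on the usual CPM scale. Among all filtered CD45+ cells the median was 11892, 11858.5, 12251.5 and 9889 UMIs in tumor and 4549, 4413.5, 4733 and 4502 in spleen. Mitochondrial UMIs made up 1.63, 1.65, 2.13 and 2.02% of all UMIs of the members in tumor and 3.98, 4.49, 3.38 and 3.49% in spleen.

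The Aire label could not be checked from these cells, since Aire gave 0, 2, 1 and 0 UMIs over whole CD45+ tumor libraries and 2, 5, 4 and 0 over splenic ones. Reads of this chemistry lie near the 3′ end of transcripts, where a disrupted allele may still be read. Each of the 28 pairs of CD45+ libraries shared between 3 and 16 barcodes, 197 in sum, and 0 member barcodes were shared. No doublet caller was run. Members that also carried UMIs of other cell types were instead left out in an alternative, which removed 16, 3, 2 and 3 members from the tumors and 4, 2, 5 and 1 from the spleens.

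The label was checked on the markers the rule had not used. Il2ra, the alpha chain of the IL-2 receptor, stood at 872, 907, 954 and 1129 CPM in tumor and 218, 166, 201 and 77.2 in spleen. A UMI of Il2ra was found in 92.6% of tumor members and 37.9% of splenic members, as means over libraries, and after thinning each cell to 2000 UMIs in 69.8% and 16.6%. Cell types that should lack the transcript gave 12.5% for tumor macrophages and 0.735% for splenic B cells. Those macrophages had median depths of 14608, 14927.5, 14095.5 and 11565 UMIs and the B cells 4224, 4163, 4469 and 4286.5, so the macrophages were deeper than the members.

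Ctla4, which competes with Cd28 for ligand, was detected in 78.9% of tumor and 61.0% of splenic members, and in 0.652% of tumor macrophages and 0.304% of splenic B cells. After thinning, the members gave 67.7% and 40.0%. Ikzf2 encodes Helios, a factor common in regulatory T cells of thymic origin, and it was detected in 94.5% and 72.2%, against 1.85% and 0.0691% in the same 2 reference types. Thinning brought the members to 59.9% and 51.5%. Each of the 3 markers was thus found in members of both tissues at shares above those reference types, against which the label held. Other T cells lay nearer. Ctla4 was detected in 75.8% of tumor CD8 T cells and 60.6% of tumor Foxp3-negative CD4 T cells, or 48.8% and 49.3% after thinning. Il2ra was detected in 45.2% and 36.6%, or 15.7% and 27.5% after thinning.

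Markers varied among the members of a library. All of Il2ra, Ctla4 and Ikzf2 had a UMI in 70.7, 66.7, 70.6 and 71.2% of tumor members but in 35.5, 17.1, 22 and 7.69% of splenic members, whose depth was lower. Members with none of the 3 made up 0, 0, 2.94 and 1.52% in tumor and 12.9, 17.1, 10 and 1.92% in spleen. Among tumor members, 43, 33, 14 and 18 cells carried a UMI of the proliferation genes Mki67 or Top2a, or 35, 45.8, 41.2 and 27.3%. The splenic counts were 3, 2, 4 and 8 cells, or 9.68, 5.71, 8 and 15.4%. Ccr8, a chemokine receptor of tissue regulatory T cells, was detected in 89, 57, 23 and 44 tumor members and in 6, 4, 9 and 9 splenic members.

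The Foxp3 threshold set the membership, so values on either side of it are a description. In tumor 41, 43 and 211 members had 1, 2 and at least 3 Foxp3 UMIs, and in spleen 50, 39 and 79. CD4 T cells passing the same gate with 0 Foxp3 UMIs and at least 1 Cd4 UMI numbered 109 in tumor and 419 in spleen. From 0 through 1 and 2 to at least 3 Foxp3 UMIs, Il2ra averaged over the libraries stood at 283, 587, 699.7 and 1039.7 CPM in tumor and 21.1, 104, 132 and 211 in spleen. Ctla4 gave 862, 1091, 1587 and 2010.2 CPM in tumor and 57.1, 381, 336 and 593 in spleen. Ikzf2 was at 154, 479.6, 516 and 417 CPM in tumor and 74.6, 490.0, 380.4 and 507 in spleen. These are means with equal weight for each library, and single libraries did not all follow them. For Il2ra, members with a single Foxp3 UMI were at 0 CPM in the Aire-/- anti-PD1 spleen against 20.9 in its Foxp3-negative cells. In the Aire+/+ isotype spleen they were at 227 CPM, above the members with 2 (200.4) and with at least 3 (216), and in the Aire+/+ isotype tumor at 865, above those with 2 (694). The Aire-/- isotype tumor had 1 such cell, at 155 CPM.

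The gate also removed cells with Foxp3. Of 442 filtered tumor cells and 217 splenic cells with a Foxp3 UMI, 25 and 12 had no Cd3 UMI. Among the 417 and 205 that had one, 61 and 24 had a Cd8a or Cd8b1 UMI, 71 and 0 had at least 2 C1q UMIs, and 1 and 17 had a Cd79a UMI. Foxp3 itself averaged 538 and 556 CPM in members of tumor and spleen. Foxp3 was detected in 0.401% of tumor macrophages and 0.141% of splenic B cells.

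Genes that separate regulatory from other CD4 T cells in mice were compared as a description only, since Foxp3 defined the contrast. Cd40lg, the helper ligand for B cells, was at 6.58 and 31.5 CPM in tumor and splenic members and at 182 and 158 CPM in Foxp3-negative cells. Tnfrsf18, which encodes the receptor GITR, showed the opposite order with 1466 and 438 CPM in members against 734 and 132. Il7r, the IL-7 receptor chain that is often low on regulatory T cells, stood at 342 and 246 CPM against 353 and 492. Il2, a cytokine that Foxp3 represses, had 0 UMIs in tumor members and 39 in the tumor Foxp3-negative cells. Ifng, the cytokine of type 1 helper cells, was at 8.30 and 1.01 CPM against 73.3 and 12.2.

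How large a part of the leukocytes these cells formed in each tissue depended on what they were counted against. Tumor infiltrates of this model hold many macrophages, and splenic leukocytes are mostly B cells, so a share of all CD45+ cells and a share of T cells answer different questions. Of all filtered CD45+ cells, members were 4.20, 3.26, 1.83 and 3.18% in tumor and 1.48, 1.68, 2.47 and 2.17% in spleen. The tissues overlapped, because the Aire-/- isotype tumor lay within the splenic range. Means were 3.12% ± 0.974 (SD, n = 4) and 1.95% ± 0.454 (SD, n = 4), and the difference of 1.17 percentage points did not pass a two-sided exact permutation test (p = 0.0857, smallest possible 0.0286). Without the Aire+/+ isotype tumor the difference was 0.808 points. With no limit on C1q UMIs, a choice made after seeing the data, it was 1.79 points (exact permutation p = 0.0571). After thinning, which left out 0 tumor cells and 31, 85, 31 and 25 splenic cells under 2000 UMIs, it was 0.759 points (exact permutation p = 0.0857).

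Within the T cells the answer changed with the denominator. Of cells with a Cd3 UMI, members were 29.1, 16.9, 8.23 and 6.34% in tumor and 8.78, 7.97, 10.2 and 9.56% in spleen. The Aire+/+ tumors lay above every spleen and the Aire-/- anti-PD1 tumor below every spleen, and the means of 15.1% ± 10.4 and 9.14% ± 0.981 (SD, n = 4 each) gave an exact permutation p of 0.4. Of cells with a Cd3 UMI and no Cd8 UMI, members were 46.6, 34.8, 18.2 and 22.2% in tumor and 15.7, 13.2, 15.4 and 15.7% in spleen. There the tissues did not overlap, with means of 30.4% ± 12.9 and 15% ± 1.23 (SD, n = 4 each, exact permutation p = 0.0286). Counting only cells with no C1q UMI, a choice made after seeing the data, gave 5.07% and 1.95% (exact permutation p = 0.0286). The share of Cd3-positive cells without Cd8 was also taken after thinning, likewise a choice made after seeing the data. It was 28.6, 28.9, 17.9 and 19.4% in tumor and 11.8, 8.4, 10.8 and 14.2% in spleen, with means of 23.7% ± 5.84 and 11.3% ± 2.40 (SD, n = 4 each, exact permutation p = 0.0286). The test treats the 8 libraries as exchangeable, although each tumor shares its condition with 1 spleen. With tissue labels flipped within the 4 conditions, a test added after seeing the data, p was 0.125 for the shares of Cd3-positive cells without Cd8, before and after thinning, and of cells without C1q UMIs. This is the smallest value that 4 pairs allow. For the share of all cells it was 0.25. By the test over 8 libraries the members thus took a larger part of tumor than of splenic T cells without Cd8, a call not kept within conditions, while their part of all leukocytes and of all T cells was not separated by the test.

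**Figure D1:**
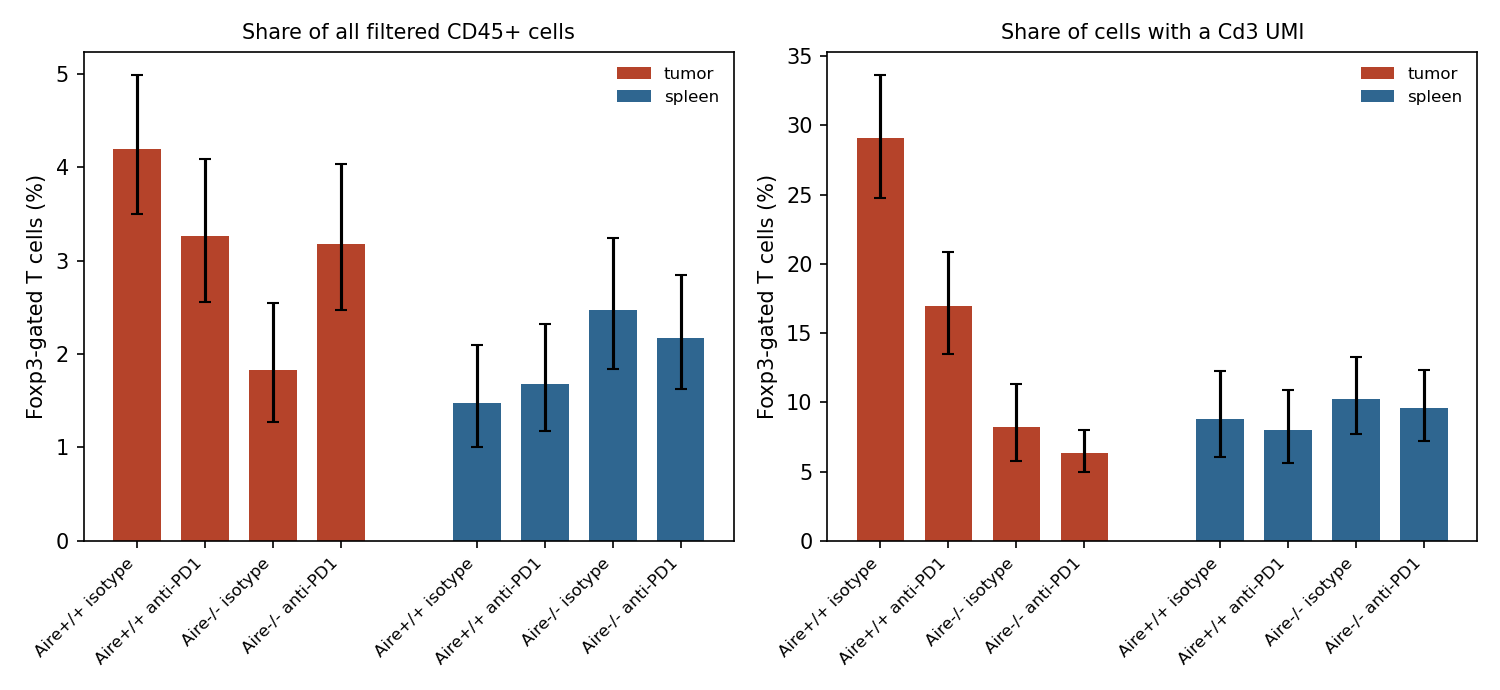
Regulatory T cells as a percentage of all filtered CD45+ cells and of cells with a Cd3 UMI in each of the 8 libraries. Bars are shares and error bars exact 95% binomial intervals; of cells with a Cd3 UMI the Aire+/+ isotype tumor reached 29.1%, while the 4 spleens stayed between 7.97% and 10.2%.

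Regulatory T cells that enter a tumor meet antigen, cytokines and low oxygen, and effector forms of these cells differ widely from the resting cells of lymphoid organs. The transcripts of tumor and splenic members were compared gene by gene over the 4 tumor and 4 splenic libraries. Of 4138 genes tested, 1430 passed at an adjusted p under 0.05, which is 34.6%. Of all tested genes, 19% (786) were higher and 15.6% (644) lower in tumor, and the median over them was log2 -0.03. DESeq2 called 936 genes, each of them also among the 1430. After thinning to 2000 UMIs per cell 466 of 1256 tested genes were called, and 417 of these were among the 629 called genes that remained testable. With no low-count filter 2097 of 13047 genes were called, 1451 higher and 646 lower. Tissue thus went with differences in both directions, and the counts of the lists below were read against these shares.

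The identity list held the 4 markers and other genes of the lineage. Ctla4 stood at 1654, 2084, 1406 and 2419 CPM in tumor and 409, 583, 668 and 313 in spleen. Every tumor library lay above every spleen, as it did for Il2ra, and both genes rose in tumor (Il2ra log2 2.60 ± 0.21 SE, adjusted p 2.97e-08; Ctla4 log2 1.94 ± 0.21 SE, adjusted p 8.16e-07). Ikzf2 was at 370.2, 465, 466 and 456 CPM in tumor and 349, 499, 503 and 585 in spleen. Its tissues overlapped and the difference did not pass (log2 -0.11 ± 0.12 SE, adjusted p 0.546). Tnfrsf18 rose from 438 CPM in spleen to 1466 in tumor (log2 1.77 ± 0.12 SE, adjusted p 2.53e-09). Entpd1, which encodes the ATP-degrading ectoenzyme CD39, and Tigit, an inhibitory receptor, rose by log2 2.72 and 1.38 (adjusted p 1.04e-06 and 3.82e-07, each higher in 4 of 4 conditions).

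A pair of identity genes moved the other way. Nrp1, a coreceptor for semaphorins carried by regulatory T cells of thymic origin, was at 20.4, 31.3, 39.5 and 57.0 CPM in tumor and 213, 144, 201 and 382 in spleen. Every tumor lay below every spleen (log2 -2.66 ± 0.23 SE, adjusted p 6.1e-08). Izumo1r, the folate receptor FR4, was at 161, 253, 395 and 498 CPM in tumor and 779, 644, 918 and 975 in spleen, again without overlap (log2 -1.41 ± 0.17 SE, adjusted p 4.65e-06). In all, 9 of the 14 tested identity genes rose, 2 fell and 3 did not pass, against 19% higher and 15.6% lower of all tested genes. The list's median was log2 1.17 beside -0.03 over all. Of the 16 listed, Foxp3 belonged to the gate and Gpr83, an orphan receptor at 0, 0, 5.65 and 0 CPM in tumor and 32.7, 33.3, 24.2 and 36.6 in spleen, was too low to test. Lrrc32, the surface anchor of latent TGF-beta, rose by log2 1.49 but lost its call without the Aire-/- anti-PD1 spleen (log2 1.03).

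**Figure D2:**
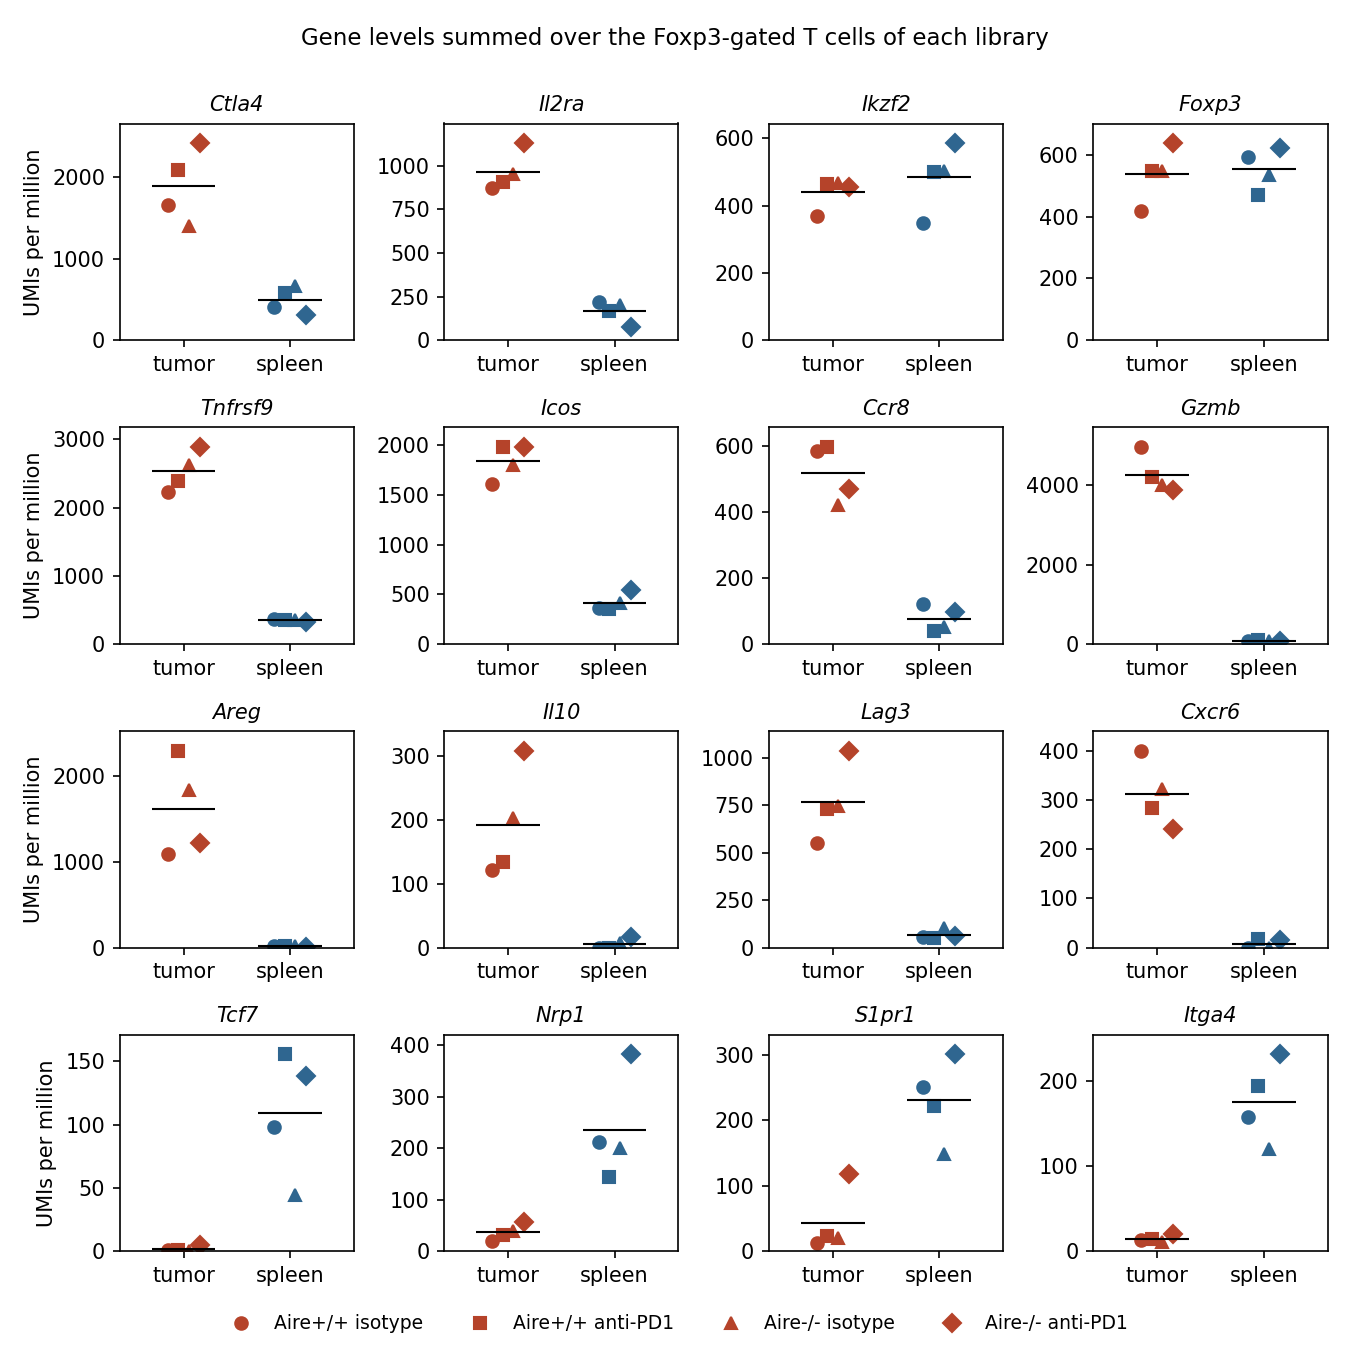
Levels of 16 genes in regulatory T cells of each library, in CPM, for tumor and spleen. Points are libraries by condition and the line is the mean of 4; Ctla4, Il2ra and Gzmb lay higher in all 4 tumors than in any spleen, and Tcf7, Nrp1 and Itga4 lower.

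Effector regulatory T cells of tissues use a program of transcription factors and receptors that resting cells lack. Ccr8 stood at 587, 598, 421 and 472 CPM in tumor and 119.9, 38.8, 52.3 and 97.5 in spleen. The tissues were separated by more than the spread of either (log2 2.76 ± 0.21 SE, adjusted p 1.28e-08). Id2, an inhibitor of DNA-binding factors that favors effector cells, was at 606, 714, 525 and 546 CPM in tumor and 76.3, 16.6, 101 and 118 in spleen (log2 2.90 ± 0.24 SE, adjusted p 4.41e-08). Klrg1, a receptor of terminally differentiated lymphocytes, was at 462, 488, 404 and 334 CPM in tumor and 81.8, 66.6, 209 and 122 in spleen and did not overlap (log2 1.80 ± 0.22 SE, adjusted p 5.75e-06). The regulators Nfil3, Bhlhe40 and Rbpj rose by log2 2.91, 2.58 and 2.28, and Maf and Prdm1 by 1.21 and 1.71.

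Other factors of this program did not pass between the tissues. Batf, an AP-1 family factor needed by tissue regulatory T cells, was at 183, 208, 195 and 213 CPM in tumor and 196, 339, 213 and 203 in spleen (log2 -0.22 ± 0.16 SE, adjusted p 0.318). Gata3, a factor shared with type 2 helper cells, was at 115, 139, 119 and 135 CPM in tumor and 142, 99.9, 205 and 199 in spleen (log2 -0.31 ± 0.18 SE, adjusted p 0.209), and after thinning it was lower in tumor by the test (log2 -1.13). Il1rl1, the receptor for the alarmin IL-33, missed the threshold at log2 -1.0 (adjusted p 0.0505) and passed in 4 of its 15 alternatives, without the Aire+/+ isotype tumor (log2 -1.38) or the Aire+/+ anti-PD1 spleen (-1.44), with the condition block (-1.06) and at 2 Foxp3 UMIs (-1.34). Irf4, a partner of Batf, rose by log2 1.43 and lost its call without the Aire-/- anti-PD1 tumor (log2 1.17), the Aire+/+ anti-PD1 spleen (log2 1.43) or the Aire-/- anti-PD1 spleen (log2 0.88) and at 2 Foxp3 UMIs (0.80), and stood at 2.26 without the Aire-/- isotype spleen. Across the list 16 of 23 tested genes rose, 1 fell and 6 did not pass, with a median of log2 1.21, and Pparg was not tested. The gene that fell, Cd83, did so by log2 -0.54 and lost its call without any 1 library other than the Aire+/+ isotype tumor and the Aire-/- anti-PD1 tumor (log2 -0.63 to -0.39), by DESeq2 (-0.56) and with no low-count filter (-0.37).

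Suppressive mediators are the molecules through which these cells act on neighbors. Gzmb, the granule protease granzyme B, stood at 4964, 4208, 4009.8 and 3886 CPM in tumor and 65.4, 99.9, 68.4 and 73.2 in spleen. This was 56.6-fold higher in tumor with no overlap (log2 5.82 ± 0.16 SE, adjusted p 3.73e-14). Areg, the growth factor amphiregulin that supports tissue repair, was at 1091, 2299.9, 1847 and 1222 CPM in tumor and 16.4, 22.2, 20.1 and 12.2 in spleen, or 92.2-fold higher (log2 6.53 ± 0.34 SE, adjusted p 1.21e-10). Il10, an anti-inflammatory cytokine, was at 121, 133, 203 and 308 CPM in tumor and 0, 0, 8.05 and 16.3 in spleen and 29.3-fold higher in tumor (log2 4.88 ± 0.35 SE, adjusted p 7.01e-09). After thinning Il10 was at log2 3.42 and without the Aire-/- anti-PD1 spleen at 5.61. Its 508 tumor UMIs came from 118 of 295 members and the 6 splenic UMIs from 4 of 168.

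The remaining mediators shared this direction. Fgl2, a soluble suppressor of the fibrinogen family, was at 225, 299, 356 and 368 CPM in tumor and 43.6, 49.9, 72.5 and 73.2 in spleen (log2 2.41 ± 0.18 SE, adjusted p 9.52e-09). Lgals1, the lectin galectin-1, was at 3668, 3460.1, 2925 and 2922 CPM in tumor and 1177, 916, 837 and 1492 in spleen (log2 1.58 ± 0.15 SE, adjusted p 2.41e-07). Tgfb1, the cytokine TGF-beta, rose by log2 1.06, Furin, a protease that processes its precursor, by 2.21, and Itgb8, an integrin chain that releases the active form, by 1.98. All 11 tested of 14 listed genes rose, with a median of log2 1.98, and Il12a, Prf1 and Gzmc were too low to test. A few of these calls were lost in some alternatives. Ebi3, a subunit of IL-35, rose by log2 0.91 and lost its call without any 1 library other than the Aire+/+ isotype tumor, the Aire-/- anti-PD1 tumor and the Aire+/+ anti-PD1 spleen (log2 0.63 to 0.97). Penk rose by log2 1.46 and lost it without any 1 library other than the Aire+/+ isotype tumor, the Aire-/- isotype tumor, the Aire-/- anti-PD1 tumor and the Aire-/- isotype spleen (log2 1.03 to 1.25), by DESeq2 (1.35) and at 2 Foxp3 UMIs (1.33), and stood at 2.44 without the Aire-/- isotype spleen. Lgals3, or galectin-3, rose by log2 1.77 and lost it with members carrying UMIs of other cells left out (log2 0.36).

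Costimulatory receptors of the TNF receptor and CD28 families sustain regulatory T cells after antigen contact. Tnfrsf9, which encodes 4-1BB, stood at 2227, 2388, 2618 and 2889 CPM in tumor and 359.8, 355, 354 and 317 in spleen. The tumors lay close together and far above the spleens (log2 2.90 ± 0.14 SE, adjusted p 4.08e-11). Tnfrsf4, which encodes OX40, was at 3123, 3209.9, 3228 and 2918 CPM in tumor and 998, 594, 954 and 691 in spleen (log2 2.0 ± 0.13 SE, adjusted p 2.91e-09). Icos, a CD28 relative induced by activation, was at 1609, 1983, 1804 and 1981 CPM in tumor and 359.8, 349.6, 411 and 545 in spleen (log2 2.18 ± 0.12 SE, adjusted p 4.05e-10). Tnfrsf25, the death receptor DR3 whose ligand expands these cells, ran opposite at 8.29, 9.52, 8.47 and 15.6 CPM in tumor and 81.8, 66.6, 64.4 and 77.2 in spleen and fell (log2 -2.76 ± 0.33 SE, adjusted p 2.83e-06). Of 8 tested costimulators 6 rose, 1 fell and 1, Cd27, did not pass, with a median of log2 1.32. Tnfrsf8 was not tested, and Cd30, its protein name, has no entry in the data.

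Inhibitory receptors rise on chronically stimulated T cells. Lag3, which binds MHC class II, was at 549.7, 732, 745 and 1037 CPM in tumor and 54.5, 49.9, 105 and 61.0 in spleen (log2 3.52 ± 0.19 SE, adjusted p 2.23e-10). Havcr2, the receptor TIM-3, was at 122, 154, 167 and 83.0 CPM in tumor and 0, 5.55, 4.03 and 8.13 in spleen (log2 4.72 ± 0.49 SE, adjusted p 4.65e-07). Pdcd1, which encodes the antibody's target PD1, differed from them at 146, 170.0, 158 and 154 CPM in tumor and 119.9, 122, 205 and 118 in spleen, where the tissues overlapped and the test did not pass (log2 0.18 ± 0.19 SE, adjusted p 0.495). Of 8 tested genes 6 rose and 1, Cd200, fell, at a median of log2 1.66. Cd200, a ligand of a myeloid inhibitory receptor, was lower at log2 -1.18 and lost its call without any 1 library other than the Aire+/+ isotype tumor, the Aire-/- isotype tumor and the Aire-/- anti-PD1 tumor (log2 -1.28 to -0.92) and with tissue as the only term (-0.95). Cd160, Btla, Cd244 and Cd200r1 were too low to test.

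Resting T cells keep genes for survival, quiescence and recirculation through lymphoid organs. Tcf7, the factor TCF1 of naive and memory cells, was at 1.51, 1.36, 0 and 5.19 CPM in tumor and 98.1, 155, 44.3 and 138 in spleen. Each tumor stood far below each spleen (log2 -5.57 ± 0.43 SE, adjusted p 1.26e-08). Bcl2, which blocks cell death, was at 6.03, 4.08, 2.82 and 15.6 CPM in tumor and 81.8, 189, 48.3 and 65.0 in spleen (log2 -3.71 ± 0.42 SE, adjusted p 1.46e-06). S1pr1, the receptor that guides lymphocytes out of tissue, was at 13.6, 23.1, 19.8 and 118 CPM in tumor and 251, 222, 149 and 301 in spleen, with the Aire-/- anti-PD1 tumor above the other tumors but below every spleen (log2 -2.53 ± 0.37 SE, adjusted p 3.36e-05). Without that tumor it was at log2 -3.62, and after thinning at -1.69. Lef1, a relative of Tcf7, was at 24.1, 16.3, 33.9 and 25.9 CPM in tumor and 98.1, 117, 109 and 109.7 in spleen (log2 -2.11 ± 0.25 SE, adjusted p 2.99e-06).

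Not all of the list moved with these. Ccr7, the receptor for lymph node chemokines, was at log2 0.55 (adjusted p 0.0631) and passed in 4 of its 16 alternatives, without the Aire+/+ isotype tumor (log2 0.66) or the Aire+/+ isotype spleen (0.78), with no low-count filter (0.72) and with members carrying UMIs of other cells left out (0.62). In the list 12 of 16 tested genes fell, 1 rose and 3 did not pass, with a median of log2 -1.0. The gene that rose, Il7r, was at log2 0.48 and lost its call without any 1 library other than the Aire+/+ isotype tumor and the Aire-/- anti-PD1 tumor (log2 0.35 to 0.55), by DESeq2 (0.49), at 2 Foxp3 UMIs (0.28) and with members carrying UMIs of other cells left out (0.36). Klf2, a quiescence factor, was lower at log2 -0.51 and lost it without any 1 library other than the Aire+/+ anti-PD1 tumor and the Aire+/+ anti-PD1 spleen (log2 -0.53 to -0.29), by DESeq2 (-0.51), with no low-count filter (-0.34), after thinning (-0.10) and with tissue as the only term (-0.47). Bach2, Igfbp4, Dapl1 and Actn1 were too low to test.

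Chemokine receptors and adhesion molecules decide where a regulatory T cell settles. Cxcr6, a receptor of tissue-resident T cells, was at 400.4, 283, 322 and 242 CPM in tumor and 0, 16.6, 0 and 16.3 in spleen (log2 5.21 ± 0.37 SE, adjusted p 5.35e-09). Itga4 and Itgb1 encode the chains of the integrin VLA-4, which binds activated endothelium, and both fell. Itga4 was at 13.6, 15, 11.3 and 20.7 CPM in tumor and 158, 194, 121 and 232 in spleen (log2 -3.47 ± 0.23 SE, adjusted p 2.23e-09), and Itgb1 at 89.7, 68, 62.1 and 168 CPM in tumor and 311, 572, 423 and 764 in spleen (log2 -2.31 ± 0.20 SE, adjusted p 5.32e-08). Ccr4, a receptor for skin and activated dendritic cell chemokines, was lower at log2 -2.16, while Cxcr3, the receptor for interferon-induced chemokines, was at log2 0.02 (adjusted p 0.966). Of 15 tested genes 8 rose, 5 fell and 2 did not pass, at a median of log2 0.49, so the list did not shift in 1 direction. Of the 21 listed, Ccr1, Ccr6, Ccr9, Ccr10, Cxcr5 and Gpr15 were too low to test.

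IL-2 signals through Stat5 and maintains Foxp3. Cish and Socs1, feedback inhibitors induced by this pathway, rose by log2 1.41 and 1.78 (adjusted p 3.61e-05 and 2.77e-06, each higher in 4 of 4 conditions). Bcl2l1, the survival protein BCL-XL, rose by log2 2.06, opposite to Bcl2. The transcription factors themselves fell, Stat5a by log2 -1.01 and Stat5b by -0.86, and neither call was kept throughout. Stat5a lost it without the Aire+/+ anti-PD1 tumor (log2 -0.73), the Aire+/+ anti-PD1 spleen (log2 -0.80) or the Aire-/- anti-PD1 spleen (log2 -0.98), by DESeq2 (-1.02) and with members carrying UMIs of other cells left out (-0.81), and Stat5b without any 1 library other than the Aire+/+ anti-PD1 tumor, the Aire-/- isotype tumor, the Aire+/+ isotype spleen and the Aire-/- anti-PD1 spleen (log2 -0.83 to -0.52) and by DESeq2 (-0.88). Of 14 tested genes 9 rose, 3 fell and 2 did not pass, with a median of log2 0.83, and Pim2, Bcl2l11 and Lta were not tested. DESeq2 called 8 of the list. Jak1 lost its call in 9 of 17 alternatives, Il2rb in 6 of 17 and Socs3 in 3 of 16.

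T-cell receptor signalling genes include kinases present at rest and feedback genes induced by antigen. Rgs1, which limits chemokine receptor signalling, was at 895, 728, 836 and 714 CPM in tumor and 76.3, 72.1, 161 and 163 in spleen (log2 2.75 ± 0.18 SE, adjusted p 2.23e-09). Rgs2, of the same family, was at 149, 169, 279.6 and 358 CPM in tumor and 5.45, 5.55, 8.05 and 12.2 in spleen (log2 4.95 ± 0.28 SE, adjusted p 3.09e-10), or log2 7.84 after thinning. Tnfaip3, which encodes the NF-kappaB inhibitor A20, was at 308, 407, 319 and 505 CPM in tumor and 60, 61.0, 48.3 and 65.0 in spleen (log2 2.75 ± 0.18 SE, adjusted p 1.78e-09). The feedback gene Nfkbid, the kinase Zap70 and the receptor Cd5 did not pass (log2 0.31, 0.18 and 0.17, adjusted p 0.506, 0.371 and 0.287). In total 7 of 20 tested genes rose, 2 fell and 11 did not pass, with a median of log2 0.29. Of the 9 called, Lat (log2 -0.35) lost its call without any 1 library other than the Aire+/+ anti-PD1 spleen and the Aire-/- isotype spleen (log2 -0.37 to -0.30), by DESeq2 (-0.35), with no low-count filter (-0.17), after thinning (-0.31) and with members carrying UMIs of other cells left out (-0.23), and Cd6 (log2 0.39) without any 1 library other than the Aire-/- anti-PD1 tumor and the Aire-/- anti-PD1 spleen (log2 0.32 to 0.39), by DESeq2 (0.39), at 2 Foxp3 UMIs (0.37), after thinning (0.52) and with the condition block (0.39). DESeq2 called 7 of the list.

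Few helper cell factors and cytokines had enough counts for the test. Of 21 listed genes 12, 13, 9 and 11 had a UMI among tumor members and 7, 9, 12 and 8 among splenic members. Only 6 of 21 could be tested, of which 3 rose, 2 fell and 1 did not pass, at a median of log2 0.49. Tbx21, the factor T-bet of type 1 helper cells, was at 64.1, 54.4, 67.8 and 102 CPM in tumor and 0, 16.6, 24.2 and 24.4 in spleen and rose (log2 2.17 ± 0.37 SE, adjusted p 0.000153). Il1r2, a decoy receptor for IL-1, rose by log2 1.99 and Stat3 by 1.0. Il1r2 lost its call by DESeq2 (2.0). Stat4 was lower at log2 -1.01, as was Il18r1, a receptor for IL-18 (log2 -0.88), which lost its call without any 1 library other than the Aire-/- anti-PD1 tumor, the Aire+/+ anti-PD1 spleen and the Aire-/- isotype spleen (log2 -0.87 to -0.52), by DESeq2 (-0.93), with no low-count filter (-0.72), at 2 Foxp3 UMIs (-0.73) and with members carrying UMIs of other cells left out (-0.53). Among those not tested were Bcl6, Ifng, Il2, Il4, Il5, Il13, Il17a, Il17f, Il21, Il22, Cd40lg, Csf2, Il23r and Il12rb2.

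Interferons induce a set of antiviral genes in most cells that sense them. Isg15, a ubiquitin-like protein, was at 1260.0, 733, 1423 and 832 CPM in tumor and 87.2, 44.4, 125 and 52.8 in spleen and without overlap (log2 3.82 ± 0.15 SE, adjusted p 7.2e-12). Ifi27l2a, a small mitochondrial protein, was at 9429.8, 9374, 10406 and 9023 CPM in tumor and 2856, 2070.0, 2093 and 2219 in spleen (log2 2.08 ± 0.13 SE, adjusted p 1.27e-09). Irf7, which transmits the signal, rose by log2 2.54. Of 24 genes, all tested, 21 rose and 3 did not pass (Irf9, Ifi47 and Irgm2), with a median of log2 1.83. DESeq2 called 19 of the list. Gbp2 lost its call in 10 of 16 alternatives, Irgm1 in 6 of 17 and Irf1 in 5 of 17. The summed level of the list in members was 17012, 15654, 19456 and 15949.7 CPM in tumor and 4361, 4007, 4726 and 4796 in spleen.

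Dividing cells carry replication and mitosis genes. Top2a, which untangles DNA, was at 135, 326, 302 and 216 CPM in tumor and 5.45, 11.1, 4.03 and 167 in spleen (log2 2.44 ± 0.48 SE, adjusted p 0.000611). The Aire-/- anti-PD1 spleen stood among the tumors, and without it the value was log2 5.02, against 4.44 with members carrying UMIs of other cells left out and 3.70 by DESeq2. Mki67, the marker Ki-67, was at 81.4, 141, 144 and 69.2 CPM in tumor and 10.9, 0, 12.1 and 106 in spleen (log2 1.68 ± 0.52 SE, adjusted p 0.0177). It lost its call without any 1 library other than the Aire+/+ isotype tumor, the Aire-/- anti-PD1 tumor and the Aire-/- anti-PD1 spleen (log2 1.30 to 1.49), by DESeq2 (2.54) and at 2 Foxp3 UMIs (1.40), and stood at 2.57 without the Aire-/- anti-PD1 tumor and 3.67 without the Aire-/- anti-PD1 spleen. With members carrying UMIs of other cells left out it was at log2 3.99. Tuba1b, a tubulin, was at log2 0.69 and turned to log2 -0.55 after thinning. Of 17 tested genes 16 rose and 1 (Mcm2) did not pass, with a median of log2 1.09, and Ube2c, Ccnb1, Ccnb2, Cks1b and Cdca8 were too low to test. DESeq2 called 12 of the list. Birc5 lost its call in 8 of 16 alternatives, Tyms in 7 of 16, Hmgb2 in 6 of 17 and Pcna in 6 of 16. Rrm2 lost it in 3 of 16, Mcm6 in 2 of 16, Rrm1 in 1 of 16 and Tubb5 in 1 of 17. Summed over the list, members held 3254, 3856, 4227 and 3269 CPM in tumor and 1635, 1743, 1783 and 2731 in spleen, so the lists' levels did not overlap although single genes did.

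Immediate early genes answer signals within minutes and also enzymatic dissociation, which only the tumors underwent by the flow methods. Fos was at 689.9, 288, 542 and 275 CPM in tumor and 5.45, 11.1, 8.05 and 20.3 in spleen (log2 5.23 ± 0.29 SE, adjusted p 3.09e-10). Jun, its partner, rose by log2 3.65 and the phosphatase Dusp1 by 3.32. Heat shock genes did not share 1 direction. Hspa5 rose by log2 0.73 and lost its call after thinning (0.14). Hspa8 was at log2 0.02 (adjusted p 0.931), and Dnajb1, Dnaja1, Hsph1 and Hspe1 were lower at log2 -0.66, -0.66, -0.91 and -0.79. Dnajb1 lost its call without the Aire-/- anti-PD1 tumor (log2 -0.51), by DESeq2 (-0.64) and with no low-count filter (-0.48). Hsph1 lost its call without any 1 library other than the Aire+/+ isotype tumor, the Aire-/- anti-PD1 tumor and the Aire+/+ isotype spleen (log2 -0.96 to -0.61), by DESeq2 (-0.91) and at 2 Foxp3 UMIs (-0.90). Of 20 tested genes 12 rose, 4 fell and 4 did not pass, at a median of log2 0.82 that was the same with Atf3 at its lower bound. The part of dissociation in these values was not tested.

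Hypoxia and activation both raise glycolytic enzymes. Bnip3, a mitophagy protein induced by low oxygen, was at 277, 190.4, 282 and 164 CPM in tumor and 21.8, 16.6, 16.1 and 12.2 in spleen (log2 3.8 ± 0.24 SE, adjusted p 1.78e-09). Pkm, the last enzyme of glycolysis, was at 2508, 2189.8, 2578 and 2202 CPM in tumor and 474, 583, 757 and 756 in spleen (log2 1.92 ± 0.13 SE, adjusted p 3.33e-09). The glucose transporter Slc2a1 rose by log2 2.24, hexokinase Hk2 by 3.26 and the lactate-forming Ldha by 1.55. Pdk1, a kinase that limits pyruvate oxidation, was lower at log2 -1.22. Of 19 tested genes 15 rose, 1 fell and 3 did not pass, at a median of log2 1.79, and Egln3 and Vegfa were not tested.

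**Figure D3:**
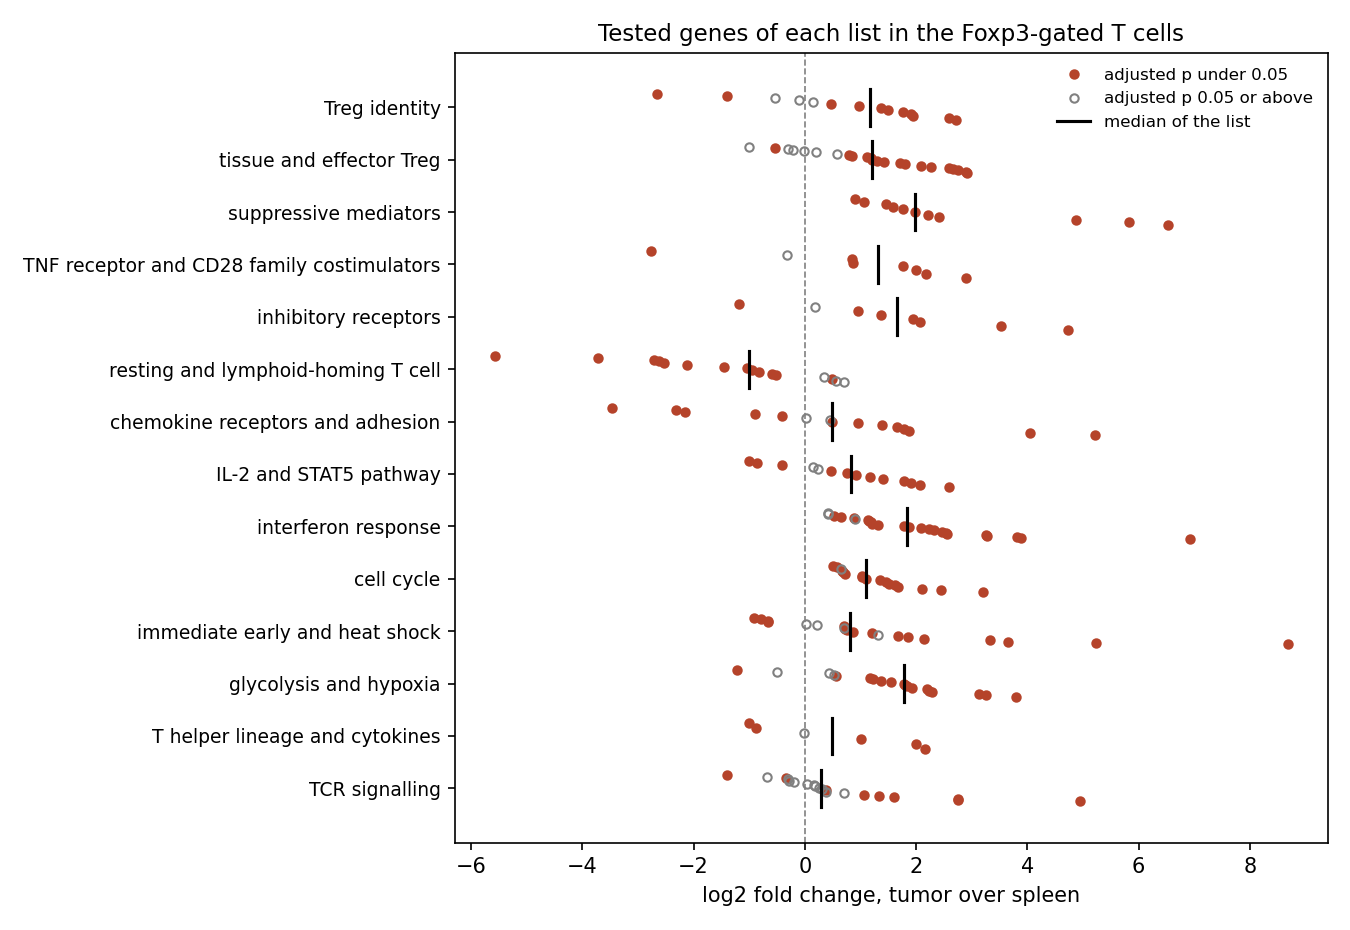
Log2 fold change of tumor over spleen in regulatory T cells for each tested gene of 14 lists. Filled points passed at an adjusted p under 0.05, open points did not and the black bar is the list's median, which ran from 1.98 for suppressive mediators to -1.0 for resting and lymphoid-homing genes among the lists of T-cell biology.

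The largest rises were named by rule, leaving out gate genes, lists of other cells, and ribosomal and mitochondrial genes. Of 486 genes that passed, had the same sign in all 4 conditions and at least 100 CPM in the higher tissue, the 10 largest were Ccl4, Atf3, Cxcl2, Ifitm3, Ccl3, Rsad2, Areg, Plac8, Gzmb and Mt1. The place of Atf3 was not established, since its spleens held 0 counts and its lower bound of 39.8-fold was below the value of Mt1. The lower interval limits given below for Ccl3, Rsad2 and Plac8 were also under the value of Mt1, so their places were not established either. Ccl4, a chemokine of activated T cells and macrophages, was at 1422, 1166, 1305 and 1198 CPM in tumor and 5.45, 0, 0 and 0 in spleen (log2 9.83 ± 0.33 SE, adjusted p 2.59e-13). Its 3898 tumor UMIs came from 112 of 295 members, and the spleen held 1 UMI (pooled ratio 1117, exact 95% interval 200.4 to 44138). Its relative Ccl3 was at 378, 162, 246 and 439 CPM in tumor and 10.9, 0, 0 and 0 in spleen (log2 6.99 ± 0.64 SE, adjusted p 1.02e-07; pooled ratio 138, exact 95% interval 38.0 to 1139). Mt1, a metal-binding protein, was at 771, 603, 545 and 856 CPM in tumor and 10.9, 16.6, 28.2 and 12.2 in spleen and 40.5-fold higher (log2 5.34 ± 0.27 SE, adjusted p 9.55e-11). Rsad2, the antiviral enzyme viperin, was at 136, 131, 313 and 98.5 CPM in tumor and 0, 0, 0 and 4.06 in spleen (log2 6.92 ± 0.67 SE, adjusted p 1.65e-07; pooled ratio 127, exact 95% interval 22.7 to 5037).

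The other rises were of genes abundant in myeloid cells. Atf3, a stress factor, was at 207, 112, 84.7 and 51.9 CPM in tumor and listed at 0 in every spleen. It was at least 39.8-fold higher against a floor of 3 counts over the splenic group. With 0 splenic counts, its test and fitted value were not read. Cxcl2, a neutrophil-attracting chemokine, was at 483, 416, 254 and 311 CPM in tumor and 0, 0, 0 and 8.13 in spleen (log2 7.12 ± 0.40 SE, adjusted p 3.09e-10; pooled ratio 174, exact 95% interval 48.2 to 1442). Ifitm3, an antiviral membrane protein, was at 766, 427, 777 and 51.9 CPM in tumor and 0, 5.55, 4.03 and 4.06 in spleen, with the Aire-/- anti-PD1 tumor far below the others (log2 7.06 ± 0.72 SE, adjusted p 4.12e-07; pooled ratio 156, exact 95% interval 53.4 to 758). Plac8, a small cysteine-rich protein of leukocytes, was at 296, 256, 164 and 211 CPM in tumor and 10.9, 0, 0 and 0 in spleen (log2 6.47 ± 0.45 SE, adjusted p 3.14e-09; pooled ratio 109, exact 95% interval 30.1 to 902). In tumor macrophages, Cxcl2 averaged 2882 CPM against 366 in members, Ifitm3 4657 against 505, Atf3 1198 against 114 and Plac8 1175 against 232. UMIs of Cxcl2 came from 42 and of Atf3 from 34 of 295 tumor members. With members carrying UMIs of other cells left out, Ifitm3 stood at log2 5.16 and Plac8 at 5.33, while Atf3 and Cxcl2 were too low to test. The part of RNA from macrophages in these 4 genes was not tested further.

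Of the 10 named rises, Areg and Gzmb had the largest ratio of member to macrophage level. Areg averaged 1615 CPM in tumor members, 562 in tumor Foxp3-negative CD4 T cells, 102 in CD8 T cells and 47.0 in macrophages. An Areg UMI was found in 56.9% of tumor members against 5.53% of tumor macrophages, whose depth was higher. Gzmb averaged 4267 CPM in members, 3159 in CD8 T cells and 9.56 in macrophages, and was found in 92.4% of tumor members against 3.90% of macrophages. Ccl4 was more abundant in tumor CD8 T cells (1748 CPM) and macrophages (1874) than in members (1273). Where a splenic value rested on 1 library, leaving it out moved the fitted value: without the Aire+/+ isotype spleen Ccl4 was at log2 12.35, Ccl3 at 10.44 and Plac8 at 9.81, and without the Aire-/- anti-PD1 spleen Cxcl2 was at 10.62 and Rsad2 at 9.56.

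Among 253 genes lower in tumor by the same limits, the 10 largest falls were Tcf7, Id3, Klf3, Itga4, Cd7, Ephx1, Evl, Arhgef3, Tespa1 and Pou2f2. Id3, an inhibitor of DNA-binding factors that opposes effector differentiation, was at 4.52, 10.9, 2.82 and 1.73 CPM in tumor and 131, 128, 177 and 215 in spleen. Each tumor lay more than an order of magnitude below each spleen (log2 -4.78 ± 0.34 SE, adjusted p 4.65e-09), the reverse of Id2. With members carrying UMIs of other cells left out Id3 was at log2 -6.30. Klf3, a repressor of the family of Klf2, was at 10.6, 12.2, 8.47 and 10.4 CPM in tumor and 142, 105, 145 and 187 in spleen (log2 -3.67 ± 0.26 SE, adjusted p 6.68e-09). Cd7, a T and NK cell surface receptor, was lower at log2 -3.38, Ephx1, an epoxide hydrolase, at -3.34 and Evl, an actin regulator, at -3.10. Arhgef3, a guanine nucleotide exchange factor, was lower at log2 -3.03, Tespa1, a T-cell receptor signalling protein, at -2.96 and Pou2f2, the factor OCT2, at -2.84. With members carrying UMIs of other cells left out, Evl was at log2 -5.16. All 20 named genes kept their call in every alternative that could test them, though that of Atf3 was not read because its spleens held 0 counts.

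Markers of other cell types were read beside these results, since droplets can hold free RNA or a 2nd cell. Macrophage and monocyte genes summed to 4958, 3422, 5151 and 1673 CPM in tumor and 932, 688, 741 and 809 in spleen, and 5 of 6 tested of 18 listed rose at a median of log2 2.39. Cd74, the MHC class II chaperone, was at 2678, 831, 2643 and 605 CPM in tumor and 338, 349.6, 407 and 394 in spleen. Csf1r was at 45.2, 13.6, 22.6 and 0 CPM in tumor and 0, 0, 0 and 0 in spleen, Adgre1 at 5.28, 10.9, 11.3 and 0 CPM in tumor and 0, 0, 0 and 0 in spleen, Lyz2 at 216, 526, 62.1 and 3.46 CPM in tumor and 5.45, 0, 4.03 and 0 in spleen and Fcer1g at 434, 263, 409 and 109 CPM in tumor and 92.7, 0, 8.05 and 0 in spleen. Spp1, or osteopontin, was at 73.1, 103, 607 and 168 CPM in tumor and listed at 0 in every spleen, at least 46.3-fold higher by the same floor. The median was the same with Spp1 at that bound. Without members carrying UMIs of other cells, Cd74 was at log2 1.26 and Spp1, Fcer1g and Tyrobp were too low to test.

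Dendritic cell genes summed to 2445, 429.8, 2462 and 289 CPM in tumor and 218, 128, 149 and 211 in spleen, with Cst3 the only one tested (1 of 10, log2 1.77, up, and 1.15 after thinning) and Siglech at 0 in every library. NK genes summed to 1123, 1061, 2197 and 1763 CPM in tumor and 1472, 72.1, 302 and 239.8 in spleen, 1 of 2 tested rose (Nkg7, log2 3.33), and the median was log2 2.15. B and plasma cell genes summed to 13.6, 2.72, 11.3 and 10.4 CPM in tumor and 60, 117, 68.4 and 65.0 in spleen, 1 was tested (Cd79b, log2 -2.34, down), and Ms4a1 was at 0 in every tumor. Genes of CD8 T cells, neutrophils, gamma-delta or innate lymphoid cells, and of tumor, stroma or red cells had 0 tested members each. Their sums in any library reached at most 11.3, 5.44, 9.52 and 76.3 CPM. The part of these other cells in the tissue differences was not tested, apart from the alternative that left such members out, in which 1241 of 1358 testable called genes kept their call.

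Whether the tumor-spleen difference belonged to regulatory T cells or to CD4 T cells at large was asked with an interaction test against the 528 Foxp3-negative CD4 T cells of the same libraries. A positive value means a larger rise or a smaller fall in tumor among the regulatory cells, and a negative value the reverse. Of 4967 genes 84 passed, or 1.69%, with 8 (0.161%) positive and 76 (1.53%) negative. Leaving out 1 library lowered the count to 41 without the Aire+/+ anti-PD1 spleen, 48 without the Aire-/- isotype spleen and 45 without the Aire-/- anti-PD1 spleen. With no low-count filter 226 were called and after thinning 24. Of the latter, 13 were among the 63 called genes that remained testable. The 109 tumor Foxp3-negative cells were few, 21, 33, 25 and 30 per library, and carried Il2ra at 283, Ctla4 at 862 and Ccr8 at 229.7 CPM. The 21 cells of the Aire+/+ isotype tumor stood apart from the other 3 groups. Their CD8 T list summed to 5999.6 CPM against 159, 40.7 and 4.90, NK genes to 3564 CPM against 1309, 1397 and 1127, and suppressive mediators to 28869.9 CPM against 6298, 4797 and 3189. Among the splenic comparison cells, those of the Aire+/+ isotype spleen also stood apart. Their dendritic genes summed to 2890 CPM against 134, 119 and 464, and macrophage genes to 2817 CPM against 284, 308 and 918. Without that tumor library 80 genes passed, as did 80 without that spleen, and the list medians given below include both. How many of the comparison cells were regulatory cells without a captured Foxp3 UMI was not tested. For most genes the tissue difference was thus not told apart from that of neighboring CD4 T cells.

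Genes with a larger rise among regulatory cells came first. Cxcr6 averaged 312 CPM in tumor and 8.23 in spleen among regulatory T cells, and 453 and 200.4 among Foxp3-negative cells (log2 4.15 ± 0.58 SE, adjusted p 0.00156). It was high in Foxp3-negative cells of the spleen but near 0 in splenic regulatory cells. Id2 averaged 598 CPM in tumor and 77.9 in spleen among regulatory T cells, and 447 and 364 among Foxp3-negative cells (log2 2.69 ± 0.25 SE, adjusted p 0.000105). Both kept their call in all 13 alternatives. Hist1h2ae, a replication-linked histone, averaged 143 CPM in tumor and 18.7 in spleen among regulatory T cells, and 46.3 and 28.4 among Foxp3-negative cells (log2 2.28 ± 0.47 SE, adjusted p 0.0223). It lost its call without the Aire+/+ anti-PD1 spleen (log2 2.19) or the Aire-/- isotype spleen (log2 2.09). Arl4c, a small GTPase, had log2 1.24 and lost its call in 10 alternatives, among them the exclusion of any single library (log2 1.04 to 1.44). Npc2, a cholesterol carrier, had log2 0.78 and lost its call without any 1 library other than the Aire+/+ isotype tumor and the Aire+/+ isotype spleen (log2 0.68 to 0.81), at 2 Foxp3 UMIs (0.70) and after thinning (0.74). These 5 were all the genes that met the naming limits, and each had the same sign in 4 of 4 conditions.

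The 10 named negative genes were Cd83, Itgae, Tcf7, Bcl2, Nr4a1, Nrp1, Tnfaip3, Cd7, Klf3 and Gadd45b. Nrp1 averaged 37.1 CPM in tumor and 235 in spleen among regulatory T cells, and 87.4 and 87.9 among Foxp3-negative cells (log2 -2.57 ± 0.29 SE, adjusted p 0.000431), so the tissue means differed in the regulatory cells and were alike in the others. Tcf7 averaged 2.01 CPM in tumor and 109 in spleen among regulatory T cells, and 77.0 and 353 among Foxp3-negative cells (log2 -3.22 ± 0.63 SE, adjusted p 0.0131), a lower tumor mean in both that lay further from the spleen in regulatory cells. Bcl2 averaged 7.12 CPM in tumor and 95.9 in spleen among regulatory T cells, and 128 and 182 among Foxp3-negative cells (log2 -3.19 ± 0.46 SE, adjusted p 0.00179), with the same pattern. Tnfaip3 averaged 385 CPM in tumor and 58.6 in spleen among regulatory T cells, and 978 and 24.2 among Foxp3-negative cells (log2 -2.55 ± 0.29 SE, adjusted p 0.000431), a higher tumor mean in both that lay further from the spleen in Foxp3-negative cells. Itgae, the alpha chain of an integrin that binds E-cadherin, averaged 220.3 CPM in tumor and 114 in spleen among regulatory T cells, and 92.4 and 4.36 among Foxp3-negative cells (log2 -3.29 ± 0.75 SE, adjusted p 0.0358). It lost its call without any 1 library other than the Aire-/- anti-PD1 tumor (log2 -3.61 to -2.91) and after thinning (-1.19). Each of the 10 had the same sign in 4 of 4 conditions, and Cd83 and Bcl2 kept their call in all 13 alternatives. Tcf7 lost it without the Aire+/+ anti-PD1 tumor (log2 -2.80), Nr4a1 without the Aire+/+ isotype spleen (-2.55) and Cd7 without the Aire-/- anti-PD1 tumor (-2.15). Nrp1, Tnfaip3, Klf3 and Gadd45b lost it after thinning (log2 -1.65, -1.84, -0.70 and -1.80).

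By list, the identity genes had 0 positive, 5 negative and 9 not passing of 14 tested (median log2 -1.03, against -0.01 over all genes). The 5 were Ctla4, Nrp1, Nt5e, Capg and Il2rb, and Ctla4 averaged 1891 CPM in tumor and 493 in spleen among regulatory T cells, and 862 and 57.1 among Foxp3-negative cells (log2 -1.90 ± 0.35 SE, adjusted p 0.013, negative in 4 of 4 conditions). Ctla4 lost this call without the Aire+/+ anti-PD1 spleen (log2 -1.85) or the Aire-/- isotype spleen (log2 -1.57) and after thinning (-1.27). Il2rb lost its call in 7 of 13 alternatives, Nt5e in 6 of 12 and Capg in 3 of 13. Costimulators had 0, 4 and 4 of 8 (-1.15), immediate early and heat shock genes 0, 7 and 15 of 22 (-1.0) and helper genes 0, 3 and 4 of 7 (-1.51). Chemokine receptors and adhesion genes had 1, 4 and 11 of 16 (-0.48), effector genes 1, 2 and 20 of 23 (-0.84), IL-2 genes 0, 3 and 13 of 16 (-0.89), resting genes 0, 3 and 16 of 19 (-0.57), T-cell receptor genes 0, 3 and 17 of 20 (-0.06) and inhibitory receptors 0, 1 and 8 of 9 (-0.72). Among the calls of these lists, Cd40lg lost its own in 9 of 13 alternatives and S1pr1 in 7 of 13. Tnfrsf1b and Pim1 lost theirs in 6 of 13 each and Tnfrsf25 in 5 of 11. By edgeR 0 passed among 13 suppressive mediators (-1.29), 24 interferon genes (-0.07), 20 cell cycle genes (1.43) and 20 glycolysis genes (0.02). At an unadjusted p under 0.05 they were 5, 2, 12 and 2, against 608 of all 4967 genes. DESeq2 called 0, 1, 4 and 0, against 76 over all genes. A negative median can come from smaller rises or from larger falls in regulatory cells, and the 2 were not separated by list.

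The tumor conditions address whether Aire loss or PD1 blockade altered the regulatory T cells of the infiltrate. Each condition was a single library, so shares and levels are given as values with exact 95% intervals that cover counting error only, and no test was made. Of all CD45+ tumor cells the Aire-/- share was 0.436 times the Aire+/+ share under isotype (0.289 to 0.642) and 0.975 times under anti-PD1 (0.688 to 1.38). Anti-PD1 over isotype gave 0.777 in Aire+/+ (0.572 to 1.05) and 1.74 in Aire-/- (1.13 to 2.71). In thinned cells these were 1.06 (0.733 to 1.53) and 1.6 (0.986 to 2.63), so the Aire+/+ value turned and both intervals included 1. The Aire-/- isotype tumor, with 34 members, was the low library in both comparisons.

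Of cells with a Cd3 UMI the ratios were lower. Aire-/- over Aire+/+ was 0.283 under isotype (0.188 to 0.417) and 0.374 under anti-PD1 (0.264 to 0.530). Anti-PD1 over isotype was 0.583 in Aire+/+ (0.429 to 0.786) and 0.770 in Aire-/- (0.502 to 1.20), the latter the reverse of the value over all cells. CD8 T cells per member numbered 1.07, 2.68, 5.79 and 10.4 in tumor and 4.77, 4.54, 3.16 and 3.71 in spleen. Of Cd3-positive cells without Cd8 the genotype ratios were 0.390 and 0.639 and the treatment ratios 0.747 and 1.22, and in thinned cells 0.628, 0.671, 1.01 and 1.08. Of cells without C1q UMIs anti-PD1 over isotype in Aire-/- was 1.23. The genotype ratios in thinned cells were 0.631 and 0.950 of all cells and 0.415 and 0.357 of Cd3-positive cells. In the spleen, Aire-/- over Aire+/+ of all cells was 1.67 under isotype (1.05 to 2.71) and 1.30 under anti-PD1, where the interval included 1. Of Cd3-positive cells it was 1.17 and 1.20, and both intervals included 1. In thinned cells the ratios of all cells were 1.6 (0.910 to 2.87) and 1.89 (1.11 to 3.33), and of Cd3-positive cells 1.08 (0.612 to 1.93) and 1.72 (1.01 to 3.03), so after thinning the anti-PD1 intervals lay above 1 and the isotype intervals included it.

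Gene levels between tumor conditions were compared at a fold of 2 among genes with at least 50 UMIs over the pair. For Aire-/- over Aire+/+ under isotype, 5.2% of 4285 genes reached it, 56 (1.31%) higher and 167 (3.9%) lower. Under anti-PD1 3.08% of 3606 did, 37 (1.03%) higher and 74 (2.05%) lower. For anti-PD1 over isotype, 2.72% of 4856 did in Aire+/+, 45 (0.927%) higher and 87 (1.79%) lower, and 2.81% of 2700 in Aire-/-, 28 (1.04%) higher and 48 (1.78%) lower. With members carrying UMIs of other cells left out, a choice made after seeing the data, the counts higher and lower were 53 and 105 for genotype under isotype, 31 and 40 for genotype under anti-PD1, 33 and 44 for anti-PD1 in Aire+/+, and 27 and 20 in Aire-/-. The genotype comparisons shared no library with each other, nor did the treatment comparisons, but each tumor entered 1 of either kind.

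The lists were read against 5.2, 3.08, 2.72 and 2.81% of all genes at the fold in the 4 comparisons, and against medians of log2 -0.02, 0.003, -0.02 and 0.02. Of 13 tested identity genes 1 was higher and 0 lower for genotype under isotype (median log2 0.40), and 1 and 0 of 14 under anti-PD1 (0.27). For anti-PD1 0 of 14 reached the fold in Aire+/+ (0.29) and 0 of 13 in Aire-/- (0.08). With so few genes these counts cannot be told from the share over all genes. Costimulators had 0 genes at the fold among 8, 8, 8 and 7 in the same 4 comparisons. Of the effector list, 1 of 21 did so for anti-PD1 in Aire-/- and 0 of 22, 22 and 23 in the others. Ctla4, the most abundant of the 4 markers, ran from 1406 to 2419 CPM across the tumors.

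Genes with the same direction under both treatments were few. For genotype 1 gene was higher and 9 lower in both of 3533 genes tested. Prf1, the pore-forming perforin, was at 36.2, 9.52, 169 and 202 CPM, so both Aire-/- tumors were above both Aire+/+ tumors, by log2 2.23 and 4.41. Its UMIs came from 23, 6, 10 and 15 members. The NK list moved the same way, at 1123, 1061, 2197 and 1763 CPM. There 1 of 2 tested genes was higher under isotype and 1 of 3 under anti-PD1 (median log2 1.11 and 0.88). Its most abundant gene was Ccl5 in the Aire-/- isotype tumor (1234 CPM) and Nkg7 in the other tumors (800, 794 and 966 CPM). In the Aire-/- isotype tumor Ncr1, Klrb1c, Klre1, Klra4, Klra8 and Gzma had no UMI. In the Aire-/- anti-PD1 tumor only Klra8 had none. The part of NK cells in the Prf1 values was not tested. Penk, which encodes proenkephalin and is made by some regulatory T cells, was at 593, 875, 87.5 and 135 CPM and lower in Aire-/- by log2 -2.76 (ratio 0.148, 0.0997 to 0.211) and -2.70 (0.154, 0.120 to 0.195). Its UMIs came from 29, 20, 3 and 8 members, and a single cell held 30.7, 22.4, 67.7 and 32.1% of them. The intervals of the Penk ratios count each UMI as independent and do not cover this spread between cells. Penk and Prf1 kept the direction and the fold with members carrying UMIs of other cells left out (Penk log2 -2.85 and -2.72, Prf1 2.15 and 4.58).

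The other named genes lower in both Aire-/- tumors were Oxsr1, Ccl12, Ccl7 and Atf3. Oxsr1, a stress kinase, was at 45.2, 131, 5.65 and 50.1 CPM from 28, 21, 2 and 11 members. Ccl12 and Ccl7 are monocyte chemokines of macrophages, and their log2 values were -2.2 and -4.07, and -2.11 and -4.76. A single cell held 80.6 and 96.9% of the Ccl12 UMIs and 66.7 and 93.2% of the Ccl7 UMIs of the Aire+/+ tumors. Atf3 had log2 -1.29 and -1.10, and 92.7% of its UMIs in the Aire+/+ anti-PD1 tumor were in 1 cell. Without members carrying UMIs of other cells the isotype values turned to 0.73 for Ccl12, 1.0 for Ccl7 and 1.44 for Atf3. The anti-PD1 value of Atf3 turned as well, to 2.64, and after thinning to 3.49. The macrophage list had 1 gene higher and 4 lower of 14 for genotype under isotype (median log2 -0.09), and 0 and 6 of 10 under anti-PD1 (-1.77).

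For anti-PD1 over isotype, 0 genes were higher and 12 lower in both genotypes of 2697 tested. Il1b, the inflammatory cytokine IL-1 beta, was at 511, 2.72, 503 and 1.73 CPM, and H2-DMb1, a chain of the MHC class II peptide exchanger, at 75.4, 2.72, 147 and 6.92. These genes belong to antigen-presenting cells. Members with at least 10 UMIs over H2-Aa, H2-Ab1 and H2-Eb1 numbered 13 of 123, 0 of 72, 3 of 34 and 1 of 66. They held 440 of 678 and 178 of 178 Il1b UMIs of the isotype tumors, and their median depth was 16305 and 19409 UMIs against 8501.5 and 7189 in the other members. Among all CD45+ tumor cells, cells with that many MHC class II UMIs made up 47.1, 44.0, 46.1 and 26.7%. Without members carrying UMIs of other cells, H2-DMb1 was at log2 -1.70 in Aire+/+ and 0.21 in Aire-/-, and Il1b at log2 -5.63 in Aire+/+. The other named genes were Osm, a cytokine of the IL-6 family (log2 -1.47 and -3.88), Ms4a4c, a tetraspan protein (-1.37 and -1.74), and Cmpk2, an interferon-induced kinase (-1.15 and -2.39). Osm turned to log2 0.03 and 0.53 and Ms4a4c in Aire-/- to 1.87 without those members. The macrophage list had 3 genes higher and 4 lower of 14 in Aire+/+ (median log2 -0.35), and 0 and 3 of 5 in Aire-/- (-1.86). The dendritic list had 0 and 4 of 4 in both (-3.81 and -4.15). The part of antigen-presenting cells in these values was not tested beyond that.

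**Figure D4:**
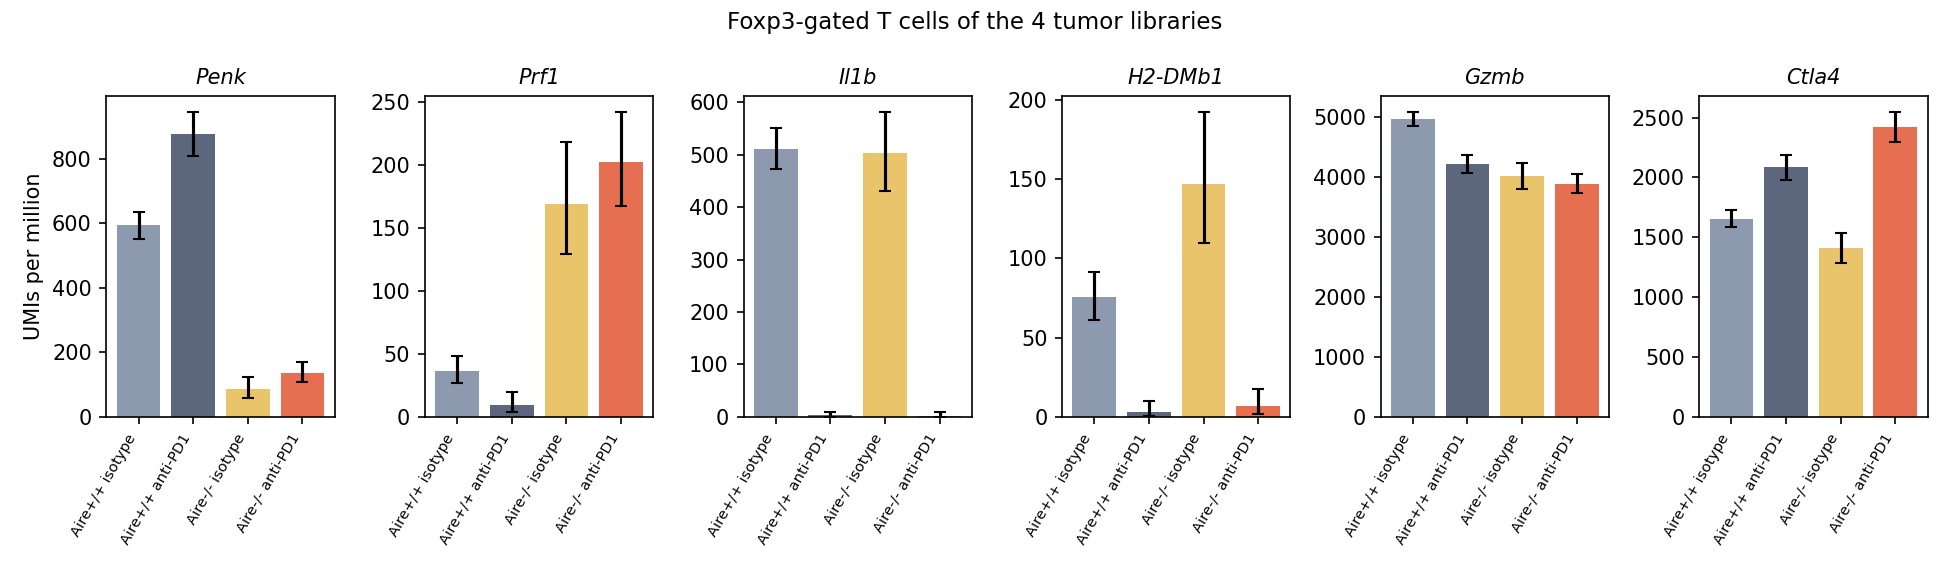
Levels of Penk, Prf1, Il1b, H2-DMb1, Gzmb and Ctla4 in regulatory T cells of the 4 tumor libraries, in CPM. Bars are single libraries with exact 95% Poisson intervals for counting error; Penk was at 87.5 and 135 CPM in the Aire-/- tumors and at 593 and 875 in the Aire+/+ tumors.

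Other lists are given against the same shares and medians. Of the interferon list 1 gene was higher and 0 lower of 24 for genotype under isotype (median log2 0.19) and the same under anti-PD1 (0.13). For anti-PD1 0 were higher and 1 lower of 24 in Aire+/+ (-0.19) and of 23 in Aire-/- (-0.29), counts near the share over all genes. Cell cycle genes had 4 higher and 1 lower of 21, 0 and 3 of 20, 1 and 1 of 22, and 0 and 2 of 15 in the 4 comparisons (median log2 0.22, -0.24, 0.16 and -0.44). Suppressive mediators had 1 higher and 1 lower of 12, 2 and 1 of 12, 1 and 1 of 13, and 0 and 1 of 11 (0.10, -0.02, 0.02 and 0.05). Inhibitory receptors had 1 and 2 of 9, 0 and 0 of 7, 0 and 1 of 9, and 0 and 1 of 7 (0.12, 0.22, 0.11 and 0.04). The resting, chemokine receptor, IL-2, T-cell receptor, immediate early, glycolysis and helper lists had at most 2 genes at the fold in any comparison. Isg15 stood at 1260.0, 733, 1423 and 832 CPM and was lower in both anti-PD1 tumors than in both isotype tumors. Gzmb at 4964, 4208, 4009.8 and 3886 CPM was similar in all 4, against far lower levels in every spleen.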

How the data were processed

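The authors deposited raw UMI counts per gene and cell barcode from 10x Chromium 3′ libraries, on GRCm38 by the submitters' processing notes; Cell Ranger made them by the study's methods, its version being stated only in the paragraph on TCR libraries. Counts of transcript entries were summed per gene symbol, and entries of vector sequences were dropped. Cells with at least 200 genes and at most 20% mitochondrial UMIs were kept. The gate and the lists of genes were chosen with earlier results of these data known. UMIs were summed over members of each library and tested with edgeR 4.0.16 (TMM, filterByExpr, quasi-likelihood F test, Benjamini-Hochberg over all genes tested, threshold 0.05) with genotype, treatment and tissue as terms. The interaction of cell type and tissue was fitted over 16 sums with library as a block. Only the 8 CD45+ libraries entered the comparisons; the CD8 sort was read for Foxp3 alone. Shares were compared by a two-sided exact permutation test, with exact Clopper-Pearson, Poisson or conditional 95% intervals for counting error. Intervals of gene levels and of their ratios count each UMI as independent and do not cover the spread between cells. Genes of the gate were not tested.

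Genes were named as the 10 largest changes in each direction that passed the test, kept 1 sign in all 4 conditions and reached 100 CPM, leaving out gate genes, lists of other cells, and ribosomal and mitochondrial genes. For tumor conditions, up to 5 per direction with a fold of 2 in both strata and 50 UMIs per pair were named. List members beyond these were described by role. Some list genes are counted in their list but not reported here by name. Irf4, Cd83, Ebi3, Cd200 and other single list genes were singled out after their values were seen. Alternatives were DESeq2 1.42.0, RLE factors, no low-count filter, 2 Foxp3 UMIs, a Cd4 UMI, no cell filter, thinning to 2000 UMIs per cell (seed 1), other denominators, other covariates, a minimum of 20 UMIs, members with UMIs of other cells left out, and each library left out in turn. The permutation tests, the edgeR fit and the intervals were tested on simulated data. Other tools were R 4.3.3, limma 3.58.1, Python 3.11.15, numpy 2.4.6, pandas 2.3.3, scipy 1.17.1 and matplotlib 3.10.9.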

Additional observations from a re-analysis of the deposited data

Results flagged for a closer look

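In a group of 4 libraries, 1 library can stand far from the other 3. The test used, Dixon's Q, flags about 1 in 20 groups when values are normally distributed. Here 18 of 120 groups were flagged. A gene or list with UMIs in only 1 of the 4 libraries is always flagged, and several flags below were of this kind. The count therefore cannot be set against that rate. The 4 libraries of a tissue are different conditions, so a distant library and its condition cannot be told apart. In tumor, Aire+/+ isotype was lowest for Ikzf2 (370.2 CPM) and for the costimulator list (9423 CPM). The gamma-delta and innate lymphoid list was highest in the Aire+/+ anti-PD1 tumor (9.52 CPM).

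In the spleens, Aire+/+ isotype was highest for Ccl4 (5.45 CPM), Ccl3 (10.9 CPM), Plac8 (10.9 CPM) and the list of NK genes (1472 CPM). The Aire+/+ anti-PD1 spleen was lowest for the share of members among Cd3-positive cells without Cd8 (13.2%) and for costimulators (2508 CPM), and highest for B and plasma cell genes (117 CPM) and gamma-delta genes (5.55 CPM). The Aire-/- isotype spleen was lowest for resting and lymphoid-homing genes (3325 CPM). The Aire-/- anti-PD1 spleen was highest for Cxcl2 (8.13 CPM), Rsad2 (4.06 CPM), Hist1h2ae (44.7 CPM), cell cycle genes (2731 CPM) and neutrophil genes (4.06 CPM), and lowest for Nr4a1 (52.8 CPM). Several of these values rest on 1 or 2 UMIs.

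The ratio of member shares for Aire-/- over Aire+/+ lay below 1 in tumor and above 1 in spleen by 3 of 4 denominators. Of all CD45+ cells it was 0.436 under isotype and 0.975 under anti-PD1 in tumor, and 1.67 and 1.30 in spleen, and both anti-PD1 intervals included 1. Of Cd3-positive cells it was 0.283 and 0.374 in tumor, and 1.17 and 1.20 in spleen, where both intervals included 1. Of Cd3-positive cells without Cd8 it was 0.390 and 0.639 in tumor, and 0.981 and 1.19 in spleen. Of cells without C1q UMIs it was 0.393 and 0.610 in tumor, and 1.66 and 1.28 in spleen. In thinned cells the splenic ratios of all cells were 1.6 and 1.89, of Cd3-positive cells 1.08 and 1.72 and of those without Cd8 0.917 and 1.69. This difference between tissues was not tested, since each ratio came from 1 pair of libraries.

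The tumor-spleen difference of regulatory T cells differed from that of Foxp3-negative CD4 T cells by the edgeR interaction test. The interaction value was positive for Cxcr6 (log2 4.15), Id2 (2.69), Hist1h2ae (2.28), Arl4c (1.24) and Npc2 (0.78). It was negative for Cd83 (log2 -3.70), Itgae (-3.29), Tcf7 (-3.22), Bcl2 (-3.19), Nr4a1 (-2.81), Nrp1 (-2.57), Tnfaip3 (-2.55), Cd7 (-2.52), Klf3 (-2.51) and Gadd45b (-2.49). Not all of these calls were stable. Arl4c lost its call in 10 of 13 alternatives and Npc2 and Itgae in 8 of 13 each, and others in the alternatives given above.

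The libraries sorted for CD8 were outside the comparisons, and a Foxp3 UMI was found there in 0.903% of tumor cells (81 of 8975) and in 0.601% of splenic cells (65 of 10810). All 81 tumor cells and 62 of the 65 splenic cells also had a Cd8a or Cd8b1 UMI. Il2ra was detected in 86.4% of these tumor cells against 48.3% of the other cells of the tumor sort, and in 16.9% against 0.968% in spleen.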

How the results depend on the processing

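Tissue results for single genes kept direction and side of the threshold in 3522 of 3789 alternative values over 231 genes; 210 lost and 56 gained a call and 1 reversed, Tuba1b at log2 -0.55 after thinning to 2000 UMIs per cell. The cell filter removed no member, with 463 before and after it. The tissue alternative without that filter therefore repeated the main fit and could not differ, and the counts of tissue alternatives here and above include it. For the interaction 2884 of 3097 were kept over 250 genes, 111 lost and 102 gained a call. The tissue count was 936 by DESeq2 and 466 after thinning, where fewer genes could be tested, and 1168 to 1309 without 1 library. Without a low-count filter it was 2097, and the median over all genes was 0.10. The interaction count was 226 without the filter, 24 after thinning and 41 to 80 without 1 library. The share difference was 15.4 points of Cd3-positive cells without Cd8, or 12.4 in thinned cells, and 3.11 of cells without C1q UMIs. The last 2 were chosen after seeing the data. Of all CD45+ cells the difference ranged from 0.808 to 1.6 points without 1 library and was 1.79 with no limit on C1q UMIs.

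Of Cd3-positive cells the share ratios for genotype were 0.283 under isotype and 0.374 under anti-PD1, and anti-PD1 over isotype in Aire-/- reversed to 0.770, or 0.676 in thinned cells. That ratio was 1.22 of Cd3-positive cells without Cd8, 1.08 of the same in thinned cells and 1.23 of cells without C1q UMIs. The anti-PD1 genotype ratio was 0.639 of Cd3-positive cells without Cd8, 0.610 of cells without C1q UMIs, 0.357 of thinned Cd3-positive cells and 0.671 of the latter without Cd8. Anti-PD1 over isotype in Aire+/+ was 1.06 after thinning. The 4 counts of genes at a fold of 2, genotype under isotype and anti-PD1 and then treatment in Aire+/+ and Aire-/-, were 25, 23, 17 and 14 after thinning and 756, 398, 476 and 410 at a minimum of 20 UMIs. With members carrying UMIs of other cells left out, a choice made after seeing the data, they were 158, 71, 77 and 47. There the genotype values reversed under isotype for Ccl12 (log2 0.73), Ccl7 (1.0) and Atf3 (1.44), and under anti-PD1 for Atf3 (2.64, or 3.49 after thinning). Anti-PD1 over isotype reversed for Osm (0.035 in Aire+/+, 0.53 in Aire-/-), H2-DMb1 (0.21 in Aire-/-) and Ms4a4c (1.87 in Aire-/-). For condition genes 32 of 56 alternative values stayed within the counting interval, 15 moved and 9 reversed. The cause was not tested. Atf3, Cxcl2, Spp1, Fcer1g and Tyrobp gave no tissue value without those members. With 34 members in the Aire-/- isotype tumor and 31 in the Aire+/+ isotype spleen, depth limited genes of low level.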

Other observations

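Among the CD8-sorted tumor libraries the share of cells with a Foxp3 UMI was 1.42, 0.810, 0.915 and 0.362%, with both isotype values above the anti-PD1 value of their genotype. In CD8-sorted spleens it was 0.794, 0.476, 0.428 and 0.685%. Beside Foxp3, Ctla4 was detected in 93.8% of those tumor cells and Ikzf2 in 63.0%, against 78.9% and 25.2% of tumor cells of the sort without a Foxp3 UMI.

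Splenic members also differed between conditions at a fold of 2. For Aire-/- over Aire+/+, 26 genes were higher and 7 lower of 1218 under isotype, and 37 and 10 of 1236 under anti-PD1. For anti-PD1 over isotype, 8 were higher and 10 lower of 964 in Aire+/+, and 25 and 8 of 1512 in Aire-/-. Each splenic library held between 31 and 52 members, so these values carry counting error of few cells and no test.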
